A study of Mus musculus with 15 samples.

Results

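The genes described here build, fold and clear the proteins that enter the endoplasmic reticulum (ER), the membrane compartment where secreted and membrane proteins are made. They were taken by name as 42 symbols: 11 chaperones and co-chaperones, 4 disulfide isomerases, 4 sensors and transcription factors of the unfolded protein response, 9 genes of ER-associated degradation, 8 genes of the translocon and signal peptidase, 4 subunits of the oligosaccharyltransferase and 2 of the COPII coat. All 42 were among the 23420 symbols counted in each of 15 RNA-seq libraries, and all 42 passed the filter on low counts that left 13159 genes for testing. The libraries came from primary ileal organoids, epithelial cultures grown in Matrigel from crypts of C57BL/6 mice, at passage 2. All organoids, vehicle included, were broken open by pipetting so that the medium reached the lumen, and were then kept for 24 h in DMEM with 0.2% bovine serum albumin. The 5 groups of 3 libraries (a, b and c) were vehicle and 4 mixtures of bile acids: H10 and H90 were modelled on the human pool, M10 and M90 on the mouse pool, and the number gives the percent of the mixture that was 12α-hydroxylated. The species of bile acid in each mixture and the dose are not given in the sources used here, so a difference between pools is one between whole mixtures. The age and sex of the mice are not given either, and nothing in the labels says whether libraries of a group came from separate cultures or animals, so the p-values measure the spread between these libraries, which may be technical.

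Proteins bound for secretion enter the ER through the Sec61 channel, where signal peptidase trims them and the oligosaccharyltransferase adds sugar chains. Chaperones such as BiP (the product of Hspa5), calnexin and calreticulin hold the chains while disulfide isomerases join their cysteines, and COPII vesicles carry folded cargo to the Golgi. Proteins that fail to fold are pulled back through the membrane and degraded by the ubiquitin system, which is ER-associated degradation. When unfolded proteins build up, the sensors IRE1, ATF6 and PERK start the unfolded protein response: IRE1 splices Xbp1 mRNA into the form that codes for an active transcription factor, ATF6 is cut to release a transcription factor, and PERK slows translation and favours ATF4. In the gut, Ern2 codes for IRE1β, a form of IRE1 found in epithelial cells that make mucus, and Xbp1 is known to be needed for Paneth and goblet cells. The files count reads per gene and do not tell spliced from unspliced Xbp1.

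The DNA ahead of such genes can carry the elements through which ATF6 and XBP1 are known to act, and the matches found are printed first, since the changes are later set beside them. RefSeq promoter windows on GRCm38.p6, 300 bases each from 250 before to 50 after a start site, were at hand for 33 of the 42 genes. The genes with no window were Hyou1, Manf, Atf6, Ern2, Derl1, Sec61a1, Ssr2, Spcs3 and Ostc. A script searched both strands for 4 motifs. The ER stress response element (ERSE, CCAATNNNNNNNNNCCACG) was present in 9 of the 33 genes (27.3%), against 37 of all 27025 genes with a window (0.137%). ERSE-II (ATTGGNCCACG) was present in 2 of the 33, Dnajb11 and Herpud1 (6.06%), against 0.0444% of all genes. The core of the unfolded protein response element (TGACGTGG) was found in Sec24d (3.03% of the 33 against 0.714%), and the core of the amino acid response element (TTGCATCA), a site type bound by ATF4, in Herpud1 (3.03% against 1.03%). These are letter matches in a window and no record of binding. The genes were taken by name and include known targets of the ERSE such as Hspa5. A share above that of all genes was therefore given in advance.
The 10 ERSE matches follow with 10 bases on either side, read 5′ to 3′ on the strand that carries the motif, and capitals mark its fixed letters.
Hspa5, chr2:34772015-34772053, plus strand: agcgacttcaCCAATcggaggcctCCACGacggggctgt
Hsp90b1 upstream site, chr10:86705628-86705666, minus strand: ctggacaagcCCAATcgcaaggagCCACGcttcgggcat
Hsp90b1 downstream site, chr10:86705523-86705561, plus strand: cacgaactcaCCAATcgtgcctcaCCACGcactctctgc
Calr, chr8:84847065-84847103, plus strand: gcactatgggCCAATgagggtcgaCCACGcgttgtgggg
Canx, chr11:50325790-50325828, minus strand: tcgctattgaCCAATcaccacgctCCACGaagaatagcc
Dnajc3, chr14:118937817-118937855, plus strand: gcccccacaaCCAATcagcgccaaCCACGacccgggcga
Creld2, chr15:88819510-88819548, minus strand: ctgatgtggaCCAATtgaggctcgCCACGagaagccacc
Pdia6, chr12:17266481-17266519, plus strand: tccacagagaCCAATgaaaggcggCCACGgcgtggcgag
Syvn1, chr19:6046522-6046560, plus strand: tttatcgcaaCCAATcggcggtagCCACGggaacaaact
Derl3, chr10:75893232-75893270, minus strand: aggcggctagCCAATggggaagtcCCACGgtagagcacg
The chaperones and Pdia6 make up most of this set, and Hsp90b1 alone had 2 matches.

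The next stretches are the 150 bases ahead of the RefSeq start of 3 genes, shown because Herpud1 and Sec24d changed by more than most of the 42, while Hspa5 is the textbook target of the ERSE. Capitals mark the ERSE in Hspa5, the amino acid response core and then ERSE-II in Herpud1, and the unfolded protein response core in Sec24d.
Hspa5, chr2:34771940-34772089, plus strand: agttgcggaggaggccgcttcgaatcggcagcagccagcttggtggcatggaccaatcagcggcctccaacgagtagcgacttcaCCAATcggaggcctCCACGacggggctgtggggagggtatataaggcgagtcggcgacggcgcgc
Herpud1, chr8:94386279-94386428, plus strand: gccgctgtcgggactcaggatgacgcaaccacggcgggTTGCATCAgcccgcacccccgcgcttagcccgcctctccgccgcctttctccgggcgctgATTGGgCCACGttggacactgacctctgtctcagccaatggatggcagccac
Sec24d, chr3:123267346-123267495, plus strand: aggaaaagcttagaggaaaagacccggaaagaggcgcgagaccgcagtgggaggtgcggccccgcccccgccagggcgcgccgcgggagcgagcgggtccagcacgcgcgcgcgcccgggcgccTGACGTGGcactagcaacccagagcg
All 3 stretches lie directly upstream of the annotated start on the strand given.

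Total counts ran from 11245807 to 28989526 a library. Levels are given in CPM (reads of a gene per 10⁶ reads counted, with library totals adjusted by trimmed means of log ratios). Mup20, a liver transcript, was taken per 10⁶ reads without that adjustment. It split the libraries into a set of 7 (vehicle, H10 and H90 a, 23.0 to 36.0) and a set of 8 (H90 b and c, M10 and M90, 0.356 to 0.583). The split runs inside H90 and otherwise between groups, so comparisons of M10 or M90 with vehicle, and of M10 with H10, cannot be told apart from it except through H90. H10 against vehicle lies inside the first set and M90 against M10 inside the second. Scaling also matters: when scaled by library size alone, the median log2 change of all tested genes was -0.13 and -0.05 in H10 and H90 and -0.29 and -0.17 in M10 and M90, where the scaling used here puts it at 0.00, -0.01, -0.03 and -0.02. The changes below are thus relative to that median gene, and small positive changes in M10 turn negative on the other scale. In a bulk library fewer cells of a type and less RNA per cell cannot be told apart.

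Per kb of exon, P4hb had the highest level in vehicle, 694 CPM per kb as the mean of 3 libraries. Calr followed at 322, Pdia3 at 207, Hsp90b1 at 196, Canx at 169 and Hspa5 at 150.1 CPM per kb. The abundant end of the scale thus held chaperones and isomerases of the ER lumen, while the sensors lay at the other end, Atf6 at 11.9, Ern1 at 5.09 and Ern2 at 3.44 CPM per kb. Derl3 was close to absent, with 0 to 17 counts a library and none in H90 b and c, where a count of 0 allows up to 0.163 and 0.254 CPM (3 counts, for counting error only). It passed in none of the comparisons, save for M90 minus H90 when the library set was a term of the model or when only the second set was used, and its changes are not described further, though the counts, medians and sums over the 42 genes and over ER-associated degradation include it.

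**Figure D1:**
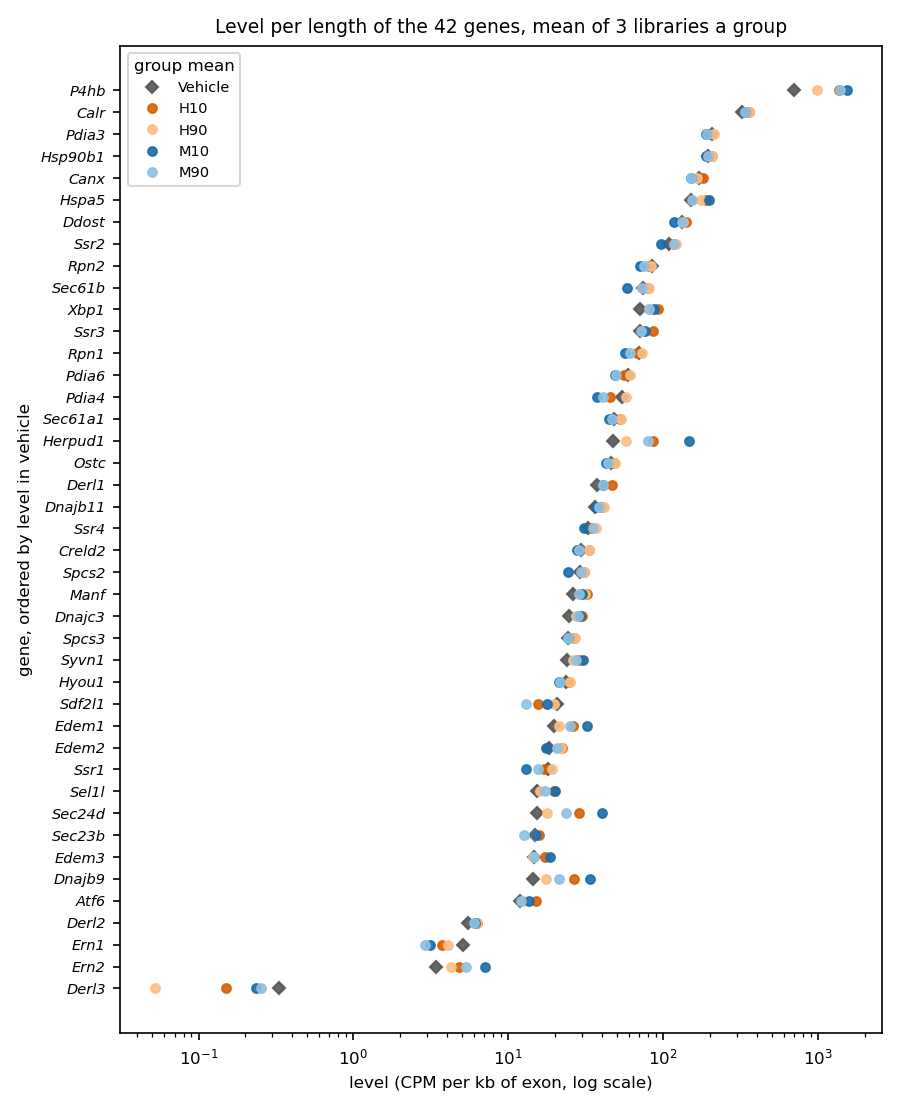
Mean level of each of the 42 genes in each group (points, 3 libraries each), in CPM per kb of exon on a log axis, ordered by the vehicle level. Most points of a gene lie on top of each other, P4hb heads the scale in every group, and the points of Herpud1, Sec24d, Dnajb9, P4hb and Ern2 reach far to the right of vehicle.

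Summed over the 42 genes, the level was 10555 to 10700 CPM in vehicle, 13440 to 13522 in H10, 11819 to 12215 in H90, 13387 to 13613 in M10 and 12465 to 12745 in M90. All pools lay above vehicle, and P4hb alone made up much of the difference. Without it the sum was 8616 to 8702 CPM in vehicle, 9592 to 9676 in H10, 9196 to 9379 in H90, 8968 to 9182 in M10 and 8493 to 8752 in M90, so that M90 overlapped vehicle. That order leans on the scaling. As a share of counts without the adjustment, the 42 genes still lay above vehicle in every pool (1.15 to 1.156% in vehicle, 1.202 to 1.239% in M10). Without P4hb, however, all libraries of M10 and M90 lay below vehicle on that scale.

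Against vehicle, the genes split into a few that changed by up to 3.08-fold, Herpud1 in M10, and a majority that moved little. In H10, 20 of 42 were higher and 3 lower at an adjusted p under 0.05 by edgeR's quasi-likelihood test with Benjamini-Hochberg adjustment, 54.8% of them, where 48.5% of all tested genes passed. The median log2 change of the 42 was 0.15 in H10. H90 had 12 higher and 1 lower (31% against 21.6% of all genes, median 0.11). In M10 there were 16 higher and 14 lower (71.4% against 64.5%, median -0.03), and in M90 11 higher and 11 lower (52.4% against 54.7%, median 0.02). For the mean of the pools the split was 19 higher and 7 lower (61.9% against 57.9%, median 0.07). These shares are read against a background in which 21.6% to 64.5% of all genes passed in a single pool, and the share in M90 lay below the background there. Calls in the human-like pools were mostly toward higher levels, and in the mouse-like pools they were split, or mostly lower when scaled by library size alone. Of all genes called, 49.5%, 54.3%, 48.4% and 47.9% were higher in H10, H90, M10 and M90. The split in the mouse-like pools was thus near that of all genes, whose calls there were also mostly lower with library size scaling.

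Scaled by library size alone, the counts were 13 higher and 8 lower in H10, 9 higher and 1 lower in H90, 7 higher and 26 lower in M10, 6 higher and 18 lower in M90 and 8 higher and 17 lower for the mean of the pools. Calls over all genes also leaned lower on that scale. They were 2254 higher and 4506 lower in H10, 1312 and 1772 in H90, 2618 and 6256 in M10, and 2432 and 5180 in M90. With upper-quartile scaling they were 17 higher and 7 lower in H10, 11 higher and 20 lower in M10, 9 higher and 11 lower in M90 and 13 higher and 10 lower for the mean. Dnajc3, Manf, Atf6, Derl1 and Ssr3 passed as higher in M10 and were negative there with library size scaling (-0.04, -0.08, -0.08, -0.12 and -0.14). With the library set as a term, calls fell to 3 higher and 0 lower in H90, 11 higher and 8 lower in M10 and 7 higher and 7 lower in M90. Calls over all 13159 genes fell too, to 1069, 5809 and 3958 in H90, M10 and M90. The 3 calls in H90 were Hspa5, P4hb and Herpud1, and every call of H10 held, with Canx added. Among the genes that held in M10 and M90 alike were Dnajb9, P4hb, Herpud1, Edem1, Ern1, Ern2, Pdia4 and Sec24d.

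**Figure D2:**
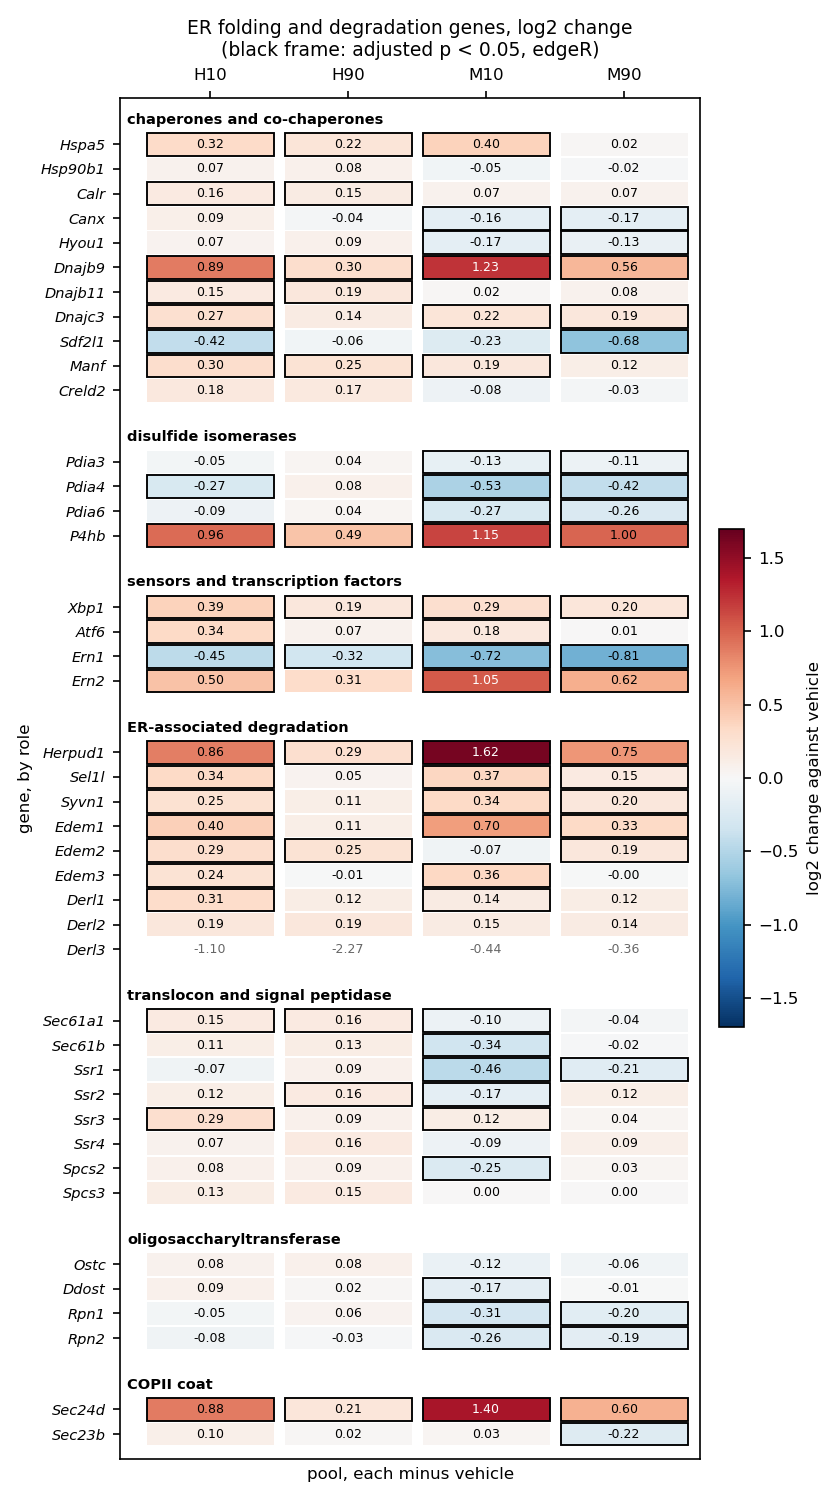
Log2 change of each of the 42 genes in each pool against vehicle, by role (red higher, blue lower, black frame for an edgeR adjusted p under 0.05; values for Derl3 rest on 0 to 17 counts and are printed grey). Values above 0.50 belong to Herpud1, Sec24d, Dnajb9, P4hb, Ern2 and Edem1, and beside Derl3 those below -0.50 to Ern1, Sdf2l1 and Pdia4. The M10 cells of Dnajc3, Manf, Atf6, Derl1 and Ssr3 turn negative when scaled by library size alone.

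Of the sensors, the ubiquitous form of IRE1 was lower and the epithelial form higher in the pools. Ern1, which codes for IRE1α, stood at 38.0, 46.5 and 40.2 CPM in vehicle a, b and c, 27.6, 32.8 and 31.3 in H10 and 32.5, 34.0 and 33.6 in H90. It measured 21.5, 28.4 and 26.2 CPM in M10 and 23.6, 24.1 and 23.5 in M90. All 12 libraries of the pools lay below all 3 of vehicle. Its log2 changes were -0.45 and -0.32 in H10 and H90, and -0.72 and -0.81 in M10 and M90, each past the test (edgeR adjusted p = 0.000381, 0.0212, 1.47e-07 and 2.31e-08). The call in H90 was lost without vehicle b, at -0.23 (edgeR adjusted p = 0.175), without H90 a, at -0.30 (edgeR adjusted p = 0.061), and with the library set as a term, at -0.36 (edgeR adjusted p = 0.14).

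Ern2 moved the other way from a lower level: it stood at 10.5, 11.0 and 9.03 CPM in vehicle a, b and c, 11.3, 15.5 and 16.1 in H10 and 13.1, 13.6 and 11.1 in H90. In the mouse-like pools it measured 20.8, 20.3 and 22.2 CPM in M10 and 15.5, 15.6 and 16.0 in M90. Every library of the pools lay above every library of vehicle, M10 above all others. The log2 changes were 0.50 and 0.31 in H10 and H90, and 1.05 and 0.62 in M10 and M90, past the test in H10, M10 and M90 (edgeR adjusted p = 0.0045, 5.07e-08 and 0.000393) and not in H90 (edgeR adjusted p = 0.134, 95% interval 0.01 to 0.61). Per kb of exon the order of both forms turned, from 5.09 for Ern1 and 3.44 for Ern2 in vehicle to 3.10 and 7.12 CPM per kb in M10, as group means.

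Xbp1, the transcription factor downstream of IRE1, stood at 224, 229.6 and 235 CPM in vehicle a, b and c, 295, 312 and 296 in H10 and 259, 261 and 264 in H90. It measured 288, 280.1 and 275 CPM in M10 and 262, 255 and 274 in M90. All libraries of the pools lay above vehicle on the scale used here. Scaled by library size alone, those of H10 and H90 still did, while those of M10 and M90 overlapped vehicle. The rises in M10 and M90 thus lean on the scaling. The changes were modest at 0.39 and 0.19 in H10 and H90, and 0.29 and 0.20 in M10 and M90, and all passed (edgeR adjusted p = 2.53e-09, 0.00219, 5.75e-07 and 0.000254), although with the library set as a term those in H90 and M90 did not (0.18 and 0.18, edgeR adjusted p = 0.0822 and 0.0839).

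Atf6, the membrane-bound factor that acts on the ERSE, stood at 121, 109 and 101 CPM in vehicle a, b and c, 141, 142 and 134 in H10 and 109, 122 and 114 in H90. It measured 128, 121 and 125 CPM in M10 and 114, 115 and 104 in M90. H10 and, narrowly, M10 lay above vehicle, and H90 and M90 overlapped it. It rose by 0.34 on the log2 scale in H10 (edgeR adjusted p = 1.65e-05) and by 0.18 in M10 (edgeR adjusted p = 0.0109). The M10 call was lost without vehicle c, at 0.12 (edgeR adjusted p = 0.117), and with the library set as a term, at 0.06. Scaled by library size alone, it was -0.08.

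Among the 11 chaperones and co-chaperones, Dnajb9 had the greatest rise in each pool. The group had 6 higher and 1 lower in H10, 5 higher and 0 lower in H90, 4 higher and 2 lower in M10 and 2 higher and 3 lower in M90, with medians of 0.16, 0.15, 0.02 and 0.02. These calls were 63.6%, 45.5%, 54.5% and 45.5% of the group, where 48.5%, 21.6%, 64.5% and 54.7% of all genes passed. In M10 and M90 the direction of the median turned with library size scaling, to -0.24 and -0.13, with 2 higher and 7 lower in M10. Dnajb9 codes for ERdj4, a co-chaperone of BiP that also restrains IRE1. It stood at 39.1, 37.1 and 33.7 CPM in vehicle a, b and c, 64.8, 67.5 and 70.6 in H10 and 45.3, 51.7 and 37.3 in H90. It measured 88.4, 87.9 and 80.3 CPM in M10 and 52.6, 53.4 and 56.1 in M90. M10 was highest, all of H10, M10 and M90 lay above vehicle, and H90 overlapped it through library c. Changes on the log2 scale were 0.89 and 0.30 in H10 and H90, and 1.23 and 0.56 in M10 and M90 (edgeR adjusted p = 3.27e-11, 0.0103, 1.85e-15 and 6.7e-07). The change in H90 no longer passed without vehicle c, at 0.24 (edgeR adjusted p = 0.0713), without H90 b, at 0.19 (edgeR adjusted p = 0.158), or with the library set as a term (edgeR adjusted p = 0.117).

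Hspa5, which codes for BiP, the main Hsp70 chaperone of the ER, stood at 643, 630.2 and 631 CPM in vehicle a, b and c, 799, 796 and 790.2 in H10 and 720.5, 780.4 and 724 in H90. It measured 851, 836 and 818 CPM in M10 and 620.4, 656 and 657 in M90. H10, H90 and M10 lay above vehicle, and M90 overlapped it. BiP mRNA rose by 0.32 on the log2 scale in H10 (95% interval 0.24 to 0.41, edgeR adjusted p = 1.55e-08), 0.22 in H90 (edgeR adjusted p = 6e-05) and 0.40 in M10 (95% interval 0.31 to 0.48, edgeR adjusted p = 7.66e-11). In M90 the change was 0.02 (edgeR adjusted p = 0.667), with an interval of -0.06 to 0.10, and -0.13 when scaled by library size alone (edgeR adjusted p = 0.00643).

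Sdf2l1, a partner of BiP and ERdj3 and a common marker of the response, was among the genes that fell. It stood at 22.0, 21.0 and 25.9 CPM in vehicle a, b and c, 17.3, 15.9 and 18.5 in H10 and 22.6, 23.3 and 19.8 in H90. It measured 18.3, 19.9 and 20.8 CPM in M10 and 13.5, 14.6 and 14.9 in M90. M90 lay lowest, H10 and M10 lay below vehicle as well, and H90 overlapped it. The log2 change was -0.42 in H10 (edgeR adjusted p = 0.00431) and -0.68 in M90 (edgeR adjusted p = 1.22e-05). It was -0.06 in H90 and -0.23 in M10 (edgeR adjusted p = 0.769 and 0.0964), neither past the test. The call in H10 missed the threshold without vehicle c, at -0.32 (edgeR adjusted p = 0.0519). The other 8 chaperones and co-chaperones, Hsp90b1 (GRP94), Calr, Canx, Hyou1, Dnajb11, Dnajc3, Manf and Creld2, had log2 changes between -0.17 and 0.30 in the 4 pools. Dnajc3, an inhibitor of PERK, passed as higher in H10, M10 and M90 (0.27, 0.22 and 0.19), though the value in M10 was -0.04 with library size scaling. Canx and Hyou1 passed as lower in M10 (-0.16 and -0.17) and in M90 (-0.17 and -0.13). None of these passed with the library set as a term (edgeR adjusted p = 0.344 and 0.198 in M10, 0.361 and 0.385 in M90).

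The disulfide isomerases went in opposite directions. P4hb rose in every pool, while Pdia3, Pdia4 and Pdia6 fell in M10 and M90. P4hb codes for protein disulfide isomerase, which is also a subunit of the microsomal triglyceride transfer protein that loads fat onto chylomicrons and of the enzyme that hydroxylates proline in collagen. It stood at 1918, 2043 and 1998 CPM in vehicle a, b and c, 3845, 3930 and 3834 in H10 and 2618, 2837 and 2921 in H90. It measured 4397, 4418 and 4431 CPM in M10 and 3972, 3917 and 3993 in M90. All 12 libraries of the pools lay above vehicle, with H90 lowest among the pools and M10 highest. Differences from vehicle on the log2 scale were 0.96 and 0.49 in H10 and H90, and 1.15 and 0.996 in M10 and M90 (edgeR adjusted p = 7.65e-22, 1.22e-12, 8.67e-25 and 1.75e-22). Scaled by library size alone, they were 0.83, 0.45, 0.89 and 0.84.

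Pdia4 (ERp72) stood at 134, 131 and 127 CPM in vehicle a, b and c, 110.3, 110.1 and 105 in H10 and 134, 132 and 149 in H90. It measured 87.6, 90.7 and 92.2 CPM in M10 and 92.8, 93.9 and 105 in M90. M10, M90 and H10 lay below vehicle, and H90 overlapped it. Its log2 changes came to -0.27 and 0.08 in H10 and H90, and -0.53 and -0.42 in M10 and M90, past the test in H10, M10 and M90 (edgeR adjusted p = 0.000311, 8.49e-10 and 2.12e-07) and not in H90 (edgeR adjusted p = 0.366).

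Pdia6, the isomerase with an ERSE in its window, stood at 222, 209 and 232 CPM in vehicle a, b and c, 208, 205 and 209 in H10 and 221, 235 and 224 in H90. It measured 194, 183 and 174 CPM in M10 and 179.9, 197 and 176 in M90. Both mouse-like pools lay below vehicle and both human-like pools overlapped it. The log2 change was -0.27 in M10 and -0.26 in M90 (edgeR adjusted p = 3.85e-05 and 7.67e-05). Pdia3 (ERp57), which works with calnexin and calreticulin, had smaller changes of -0.13 in M10 and -0.11 in M90 that passed. With the library set as a term the Pdia3 changes were -0.11 and -0.08 and did not pass (edgeR adjusted p = 0.203 and 0.402). Summed without P4hb, the isomerases measured 978 to 1020 CPM in vehicle and 859 to 876 CPM in M10.

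**Figure D3:**
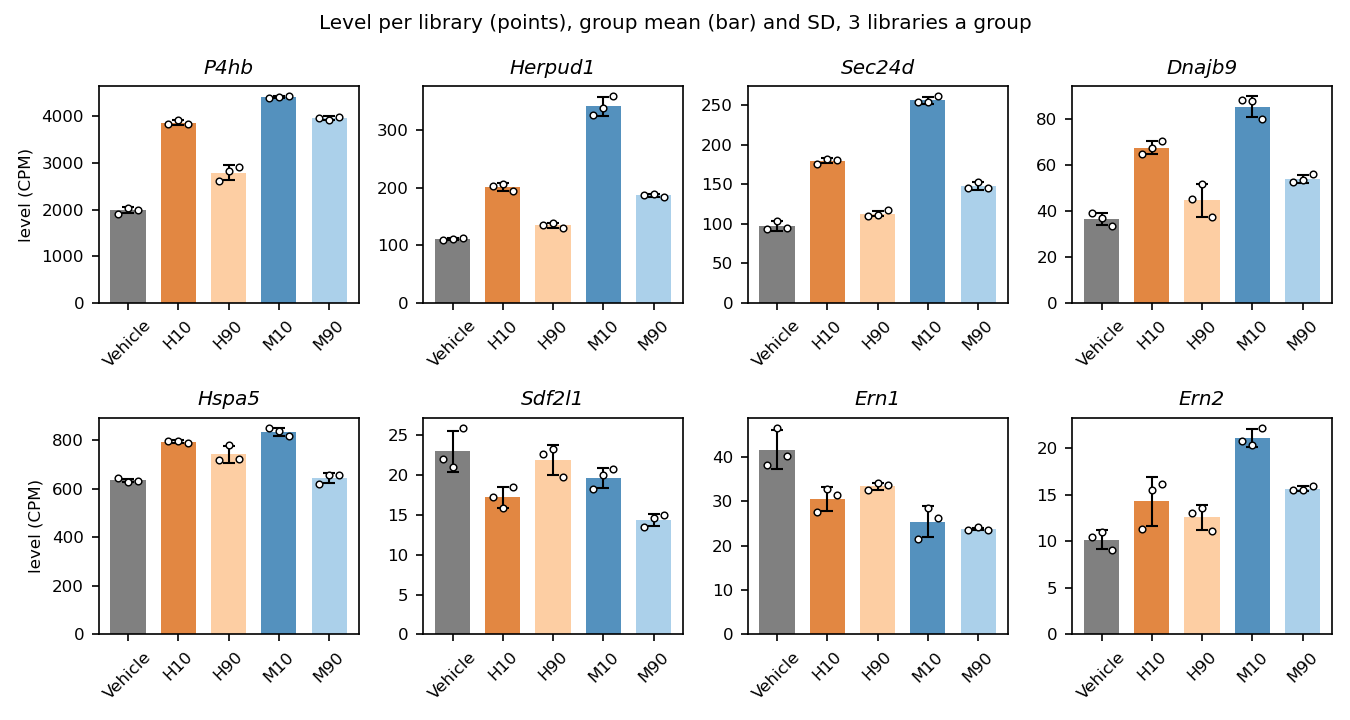
Level in CPM of 8 genes in each library (points), with the group mean (bar) and SD (error bar, n = 3). M10 holds the highest points of P4hb, Herpud1, Sec24d, Dnajb9 and Ern2, vehicle the highest points of Ern1 and Sdf2l1, and Hspa5 in M90 sits with vehicle.

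Genes of ER-associated degradation that passed were all higher, except that when scaled by library size alone Derl1 and Edem2 passed as lower in M10. Of 9, 7 and 2 were higher in H10 and H90 and 6 and 5 in M10 and M90, with none lower and medians of 0.29, 0.11, 0.34 and 0.15. These were 77.8%, 22.2%, 66.7% and 55.6% of the group, where 48.5%, 21.6%, 64.5% and 54.7% of all genes passed. The share called was thus near that of all genes except in H10. Scaled by library size alone, the counts were 4 higher and 0 lower in H10, 2 higher and 2 lower in M10 and 2 higher and 0 lower in M90. Their summed level was 793 to 839 CPM in vehicle, 1061 to 1078 in H10, 869.6 to 915 in H90, 1221 to 1244 in M10 and 967 to 990.5 in M90, and no pool overlapped vehicle.

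Herpud1, a membrane protein that brings ubiquitin ligases and the derlins together, had the greatest change of the 42 in M10. Its level was 109, 112 and 112 CPM in vehicle a, b and c, 203, 207 and 194 in H10 and 135, 139 and 131 in H90. In the other pools it was 326, 339 and 359 CPM in M10 and 187, 189 and 184 in M90. Every library of the pools lay above vehicle, and M10 lay above all others. The log2 changes were 0.86 in H10 (95% interval 0.76 to 0.97), 0.29 in H90 (0.18 to 0.39), 1.62 in M10 (1.52 to 1.73) and 0.75 in M90 (0.65 to 0.85). All passed (edgeR adjusted p = 2.79e-17, 3.86e-05, 4.66e-26 and 1.09e-15). With the library set as a term they were 0.86, 0.29, 1.62 and 0.75, and all still passed. The promoter printed above for this gene holds both an ERSE-II and an amino acid response core.

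Edem1, which pulls misfolded glycoproteins out of the folding cycle, stood at 130.3, 130.0 and 121 CPM in vehicle a, b and c, 162, 167 and 175 in H10 and 139, 145 and 127 in H90. It measured 201, 213 and 208 CPM in M10 and 167, 162 and 151 in M90. H10, M10 and M90 lay above vehicle, and H90 overlapped it. Changes on the log2 scale were 0.40 and 0.11 in H10 and H90, and 0.70 and 0.33 in M10 and M90 (edgeR adjusted p = 1.26e-07, 0.168, 7e-14 and 3.61e-06).

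Its relative Edem2, a mannosidase of the same route, followed another pattern. It stood at 57.7, 63.3 and 67.8 CPM in vehicle a, b and c, 77.4, 78.6 and 75.7 in H10 and 67.2, 68.9 and 89.9 in H90. It measured 58.1, 61.4 and 61.1 CPM in M10 and 68.9, 77.0 and 69.6 in M90. H10 and M90 lay above vehicle, while M10 and H90 overlapped it. Its log2 change was 0.29 in H10 (edgeR adjusted p = 0.00303), 0.25 in H90 (edgeR adjusted p = 0.0281), -0.07 in M10 (edgeR adjusted p = 0.493) and 0.19 in M90 (edgeR adjusted p = 0.0496). In H90 the call was lost without vehicle a, at 0.19 (edgeR adjusted p = 0.161), vehicle b, at 0.25 (edgeR adjusted p = 0.0683), or H90 c, at 0.11 (edgeR adjusted p = 0.368). In M90 it was lost without vehicle a, vehicle b, M90 b or M90 c (edgeR adjusted p = 0.212, 0.0914, 0.234 and 0.0572), and turned to -0.04 with the library set as a term.

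Sel1l, the scaffold of the HRD1 ubiquitin ligase, stood at 131, 141 and 124 CPM in vehicle a, b and c, 174, 161 and 167 in H10 and 136, 139 and 135 in H90. It measured 179, 167 and 164 CPM in M10 and 154, 145 and 141 in M90. H10, M10 and M90 lay above vehicle, and H90 overlapped it. Differences from vehicle on the log2 scale were 0.34 and 0.05 in H10 and H90, and 0.37 and 0.15 in M10 and M90, past the test in H10, M10 and M90 (edgeR adjusted p = 2.18e-06, 3.23e-07 and 0.0187), the last not without vehicle c, at 0.11 (edgeR adjusted p = 0.122), or without M90 a, at 0.12 (edgeR adjusted p = 0.113). Syvn1, which codes for HRD1 itself, changed alongside it, with 0.25 and 0.11 in H10 and H90, and 0.34 and 0.20 in M10 and M90, past the test in H10, M10 and M90. Edem3 passed in H10 and M10 (0.24 and 0.36), and Derl1, a channel component, in the same pools (0.31 and 0.14), the value of Derl1 in M10 being -0.12 with library size scaling. Derl2 lay between 0.14 and 0.19 and passed in no single pool.

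The COPII coat genes also differed from each other. Sec24d, a cargo-binding subunit, stood at 93.4, 104 and 94.1 CPM in vehicle a, b and c, 176, 181 and 181 in H10 and 110.4, 111 and 117 in H90. It measured 253, 253 and 261 CPM in M10 and 145, 153 and 146 in M90. Every pool lay above vehicle, and M10 lay above all others. Its log2 changes came to 0.88 and 0.21 in H10 and H90, and 1.40 and 0.60 in M10 and M90 (edgeR adjusted p = 7.95e-17, 0.00341, 2.99e-23 and 2.42e-12), that in H90 not past the test with the library set as a term (0.18, edgeR adjusted p = 0.137). Sec23b, a subunit of the same inner coat, had 0.10 and 0.02 in H10 and H90, and 0.03 and -0.22 in M10 and M90 and passed in M90 (edgeR adjusted p = 0.00176), where it was lower. With the library set as a term it did not pass (edgeR adjusted p = 0.137).

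The translocon and signal peptidase genes were little changed in the human-like pools and mostly lower in M10. Of 8, there were 2 higher and 0 lower in H10, 2 higher and 0 lower in H90, 1 higher and 5 lower in M10 and 0 higher and 1 lower in M90. These calls were 25%, 25%, 75% and 12.5% of the group, where 48.5%, 21.6%, 64.5% and 54.7% of all genes passed. The medians were 0.11, 0.14, -0.13 and 0.02, and when scaled by library size alone -0.02, 0.10, -0.40 and -0.14, so the sign in H10 and M90 turned with the scaling. That in M10 did not, but library size scaling lowers the median of all genes there, so this is no added support. With the library set as a term, 0 higher and 3 lower passed in M10. The summed level was 1386 to 1437 CPM in vehicle and 1257 to 1314 in M10, with no overlap.

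Ssr1, the alpha subunit of the translocon-associated protein complex, stood at 188, 183 and 191 CPM in vehicle a, b and c, 180.2, 176 and 178 in H10 and 196, 208 and 196 in H90. It measured 143, 126 and 139 CPM in M10 and 155, 169.6 and 162 in M90. M10 was lowest, M90 and H10 also lay below vehicle, and H90 lay above it. Its log2 changes were -0.07 and 0.09 in H10 and H90, and -0.46 and -0.21 in M10 and M90, past the test in M10 and M90 (edgeR adjusted p = 1.04e-09 and 0.000946).

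Ssr3, the gamma subunit of that complex, stood at 297, 300.3 and 284 CPM in vehicle a, b and c, 365, 361 and 348 in H10 and 319.6, 311 and 306 in H90. It measured 326, 312 and 323 CPM in M10 and 303, 289 and 311 in M90. H10 lay above all other libraries, while M90 overlapped vehicle. It rose by 0.29 in H10 (edgeR adjusted p = 9.89e-07) and by 0.12 in M10 (edgeR adjusted p = 0.0135) on the log2 scale. The M10 value turned to -0.14 with library size and -0.01 with upper-quartile scaling, and it missed the threshold without vehicle c, at 0.10 (edgeR adjusted p = 0.0704), or M10 a, at 0.11 (edgeR adjusted p = 0.0559). Subunits of one complex thus differed in direction in M10: its alpha and beta subunits were lower under all 4 scalings, while the gamma subunit was higher on the scale used here and lower on those 2.

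Ssr2, the beta subunit, stood at 199, 194 and 215 CPM in vehicle a, b and c, 219.5, 205 and 234 in H10 and 223, 232 and 222 in H90. It measured 178, 179 and 183 CPM in M10 and 212, 228 and 219 in M90. M10 lay below every other group. It fell by 0.17 in M10 on the log2 scale (edgeR adjusted p = 0.00473), which did not pass with the library set as a term (-0.19, edgeR adjusted p = 0.0933). Sec61b, a small subunit of the channel, stood at 90.4, 91.0 and 101 CPM in vehicle a, b and c, 97.8, 111 and 96.2 in H10 and 96.6, 101 and 111 in H90. It measured 77.2, 69.1 and 77.2 CPM in M10 and 91.5, 93.4 and 93.5 in M90. M10 again lay below every other group, and the log2 change there was -0.34 (edgeR adjusted p = 4.74e-05).

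Spcs2, a subunit of signal peptidase, stood at 119.7, 121 and 125 CPM in vehicle a, b and c, 131, 124 and 133 in H10 and 124, 134 and 132 in H90. It measured 108, 97.5 and 102 CPM in M10 and 129, 121 and 123 in M90. As with Sec61b, M10 lay below all other libraries, at a log2 change of -0.25 (edgeR adjusted p = 0.000196). The remaining members, Sec61a1 (the channel itself), Ssr4 and Spcs3, had changes between -0.10 and 0.16, and of these Sec61a1 passed as higher in H10 and H90 and as lower in M10.

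None of the 4 oligosaccharyltransferase subunits passed in H10 or H90, and those that passed in the mouse-like pools were lower: 3 in M10 and 2 in M90, on medians of -0.22 and -0.12. The latter were 75% and 50% of the subunits, where 64.5% and 54.7% of all genes passed. Scaled by library size alone, the medians were -0.48 and -0.27, and 0 higher and 2 lower passed in H10. Rpn1, which ties the enzyme to the ribosome, stood at 307, 314 and 326 CPM in vehicle a, b and c, 309.7, 301 and 307 in H10 and 313, 334 and 343 in H90. It measured 246, 256 and 265 CPM in M10 and 264, 280.2 and 281 in M90. Both mouse-like pools lay below vehicle, and M10 below M90 but for the overlap of M10 c with M90 a. The changes were -0.31 in M10 and -0.20 in M90 (edgeR adjusted p = 3.55e-07 and 0.000379).

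Rpn2 stood at 379, 363 and 387 CPM in vehicle a, b and c, 355, 363 and 353 in H10 and 367, 361 and 382 in H90. It measured 302, 314 and 328 CPM in M10 and 326, 336 and 331 in M90. Both mouse-like pools lay below all libraries of the other 3 groups. The log2 changes were -0.26 in M10 and -0.19 in M90 (edgeR adjusted p = 2.54e-06 and 0.000453). Ddost passed as lower in M10 (-0.17), and Ostc in no pool (-0.12 in M10, edgeR adjusted p = 0.0803).

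The next question was whether the share of 12α-hydroxylated bile acids mattered within each species model. In the human-like pools, H90 minus H10 called 3 of the 42 as higher and 12 as lower (35.7%, where 36.6% of all genes passed). H90 b and c lie in the second library set and H10 in the first, so this difference is partly tied to that split. With the library set as a term, 1 higher and 10 lower passed, and 3479 of all genes instead of 4815. Not all of the 3 higher calls, Sdf2l1, Pdia4 and Ssr1, thus held. In the mouse-like pools, M90 minus M10 called 7 as higher and 13 as lower (47.6%, where 41.2% of all genes passed). Scaled by library size alone, the splits were 10 higher and 8 lower and 18 higher and 7 lower, at all-gene medians of 0.10 and 0.15. With upper-quartile scaling they were 6 higher and 10 lower and 14 higher and 9 lower. The genes with the greatest rises against vehicle, Ern2 aside, were lower at the 90% share in both models. Herpud1 differed by -0.58 in the human-like and -0.87 in the mouse-like pools (edgeR adjusted p = 6.68e-12 and 5.18e-17). Sec24d differed by -0.67 and -0.79 (edgeR adjusted p = 7.45e-13 and 3.68e-15), and Dnajb9 by -0.59 and -0.66 (edgeR adjusted p = 6.75e-07 and 2.57e-08). Edem1 (-0.29 and -0.37), Sel1l (-0.29 and -0.22) and P4hb (-0.47 and -0.16) followed the same order, all past the test. The 6 genes were picked for their changes in these same libraries. That their CPM did not overlap between the shares of either model is therefore no added support. Their signs held with library size and upper-quartile scaling, although the mouse-like differences of P4hb and Sel1l did not pass there (edgeR adjusted p = 0.34 and 0.125 with library size).

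Atf6 was lower at 90% in both models as well, at -0.27 and -0.17 on the log2 scale (edgeR adjusted p = 0.000569 and 0.027). The mouse-like value missed the threshold without M10 a, at -0.15 (edgeR adjusted p = 0.095), M10 c, at -0.17 (edgeR adjusted p = 0.0539), or M90 c, at -0.12 (edgeR adjusted p = 0.172). Xbp1 was lower in the human-like pools (-0.20, edgeR adjusted p = 0.000393), with -0.09 in the mouse-like pools (95% interval -0.18 to 0.00). Ern1 did not pass in either model, with 0.13 (95% interval -0.09 to 0.34) and -0.09 (-0.31 to 0.12). Ern2 was lower in the mouse-like pools (-0.43, edgeR adjusted p = 0.0128), and the human-like difference of -0.18 had an interval of -0.48 to 0.11.

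Several genes of the translocon and signal peptidase were higher at the 90% share in the mouse-like pools. Of the 8 translocon and signal peptidase genes, 5 higher and 0 lower passed in M90 minus M10 (62.5%, where 41.2% of all genes passed). Their values ran from 0.18 for Ssr4 to 0.32 for Sec61b. In H90 minus H10, 1 higher and 1 lower passed (25%, where 36.6% of all genes passed). With library size scaling the count in M90 minus M10 was 6 higher and 0 lower. That scaling moved all genes upward there, to 4084 higher and 1776 lower from 2799 and 2629, so it is no added support. Ssr1 was higher at 90% in both models (0.17 and 0.25, edgeR adjusted p = 0.0117 and 0.000166), the human-like call not holding without H90 b, at 0.14 (edgeR adjusted p = 0.0751). Ssr3 was lower at 90% in the human-like pools (-0.20, edgeR adjusted p = 0.00044). Pdia4 was higher at 90% in the human-like pools (0.35, edgeR adjusted p = 1.32e-05), and in the mouse-like pools its difference was 0.11 (95% interval -0.01 to 0.23). Edem2 was higher in M90 than in M10 (0.26, edgeR adjusted p = 0.0116), though not past the test without M90 b, at 0.20 (edgeR adjusted p = 0.0866).

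**Figure D4:**
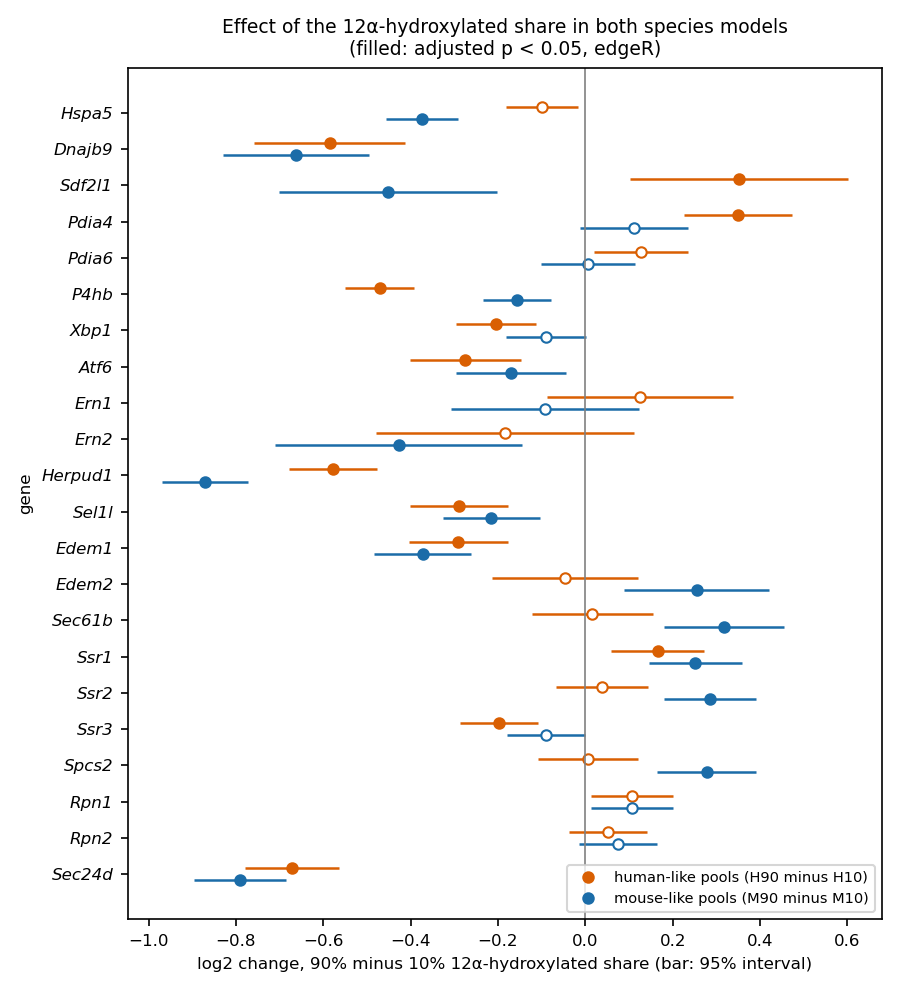
Log2 difference between the 90% and the 10% share for 22 genes in the human-like pools (orange) and the mouse-like pools (blue), with 95% intervals from the edgeR fit and filled points where the adjusted p was under 0.05. Herpud1, Sec24d and Dnajb9 lie left of 0 in both models, Sdf2l1 lies on opposite sides, and Sec61b, Ssr2 and Spcs2 are filled on the right in the mouse-like pools, where the intervals of the human-like pools cross 0.

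The interaction asks whether that difference itself differed between the models. It passed for 5 genes in the positive direction and 3 in the negative (19% of 42, where 14.8% of all tested genes passed). Sdf2l1 had the greatest value, -0.80 (95% interval -1.16 to -0.45, edgeR adjusted p = 0.00103): it was higher at 90% in the human-like pools (0.35) and lower in the mouse-like ones (-0.45). The human-like difference alone lost its call without H10 a, H10 b, H90 a or H90 b (edgeR adjusted p = 0.056, 0.107, 0.0654 and 0.0852). Hspa5 (-0.27, edgeR adjusted p = 0.000739) was lower at 90% in the mouse-like pools (-0.37), with -0.10 in the human-like ones. Herpud1 (-0.29, edgeR adjusted p = 0.00283) had the greater fall in the mouse-like pools. For P4hb the value was 0.31 (edgeR adjusted p = 6.05e-05), the greater fall being in the human-like pools. Sec61b, Ssr2, Spcs2 and Ddost were positive (0.30, 0.25, 0.27 and 0.23), with 0.32, 0.28, 0.28 and 0.16 between M10 and M90 and 0.02, 0.04, 0.01 and -0.06 between H10 and H90. With the library set as a term Ssr2 and Ddost did not pass (edgeR adjusted p = 0.0564 and 0.0907). Single libraries also decided 3 of these calls. Sec61b did not pass without H10 b, at 0.24 (edgeR adjusted p = 0.116), or without any one of H90 a, H90 b, M10 b, M90 b and M90 c (edgeR adjusted p = 0.0866, 0.0516, 0.091, 0.0603 and 0.0535). Ssr2 did not pass without H10 c, at 0.20 (edgeR adjusted p = 0.0966), or M90 b, at 0.22 (edgeR adjusted p = 0.0694). Spcs2 did not pass without H10 c, at 0.25 (edgeR adjusted p = 0.0534), H90 a, at 0.24 (edgeR adjusted p = 0.0513), or M10 b, at 0.24 (edgeR adjusted p = 0.0545).

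At the 10% share, M10 minus H10 called 6 genes as higher and 20 as lower (61.9%, where 36.3% of all genes passed; median -0.13). Library size scaling gave 5 higher and 29 lower at an all-gene median of -0.15, upper-quartile scaling 6 higher and 27 lower, and the library set term 3 higher and 8 lower. The 6 higher genes were Herpud1 (0.76), Ern2 (0.55), Sec24d (0.51), Dnajb9 (0.34), Edem1 (0.30) and P4hb (0.19), of which Herpud1, Sec24d and Edem1 held with the set term. All 4 oligosaccharyltransferase subunits and 6 of the 8 translocon and signal peptidase genes were lower in M10, led by Sec61b (-0.45, edgeR adjusted p = 1.69e-06), Ssr1 (-0.39, edgeR adjusted p = 2.13e-07) and Spcs2 (-0.33, edgeR adjusted p = 9.19e-06). These 3 also held with the set term, while of the oligosaccharyltransferase Rpn1 alone did (-0.37). Edem2 was lower in M10 (-0.36, edgeR adjusted p = 0.000609).

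At the 90% share, M90 minus H90 called 5 higher and 14 lower (45.2%, where 38.8% of all genes passed; median -0.07), against 3 higher and 27 lower with library size scaling and 5 higher and 21 lower with upper-quartile scaling. H90 a lies in the first library set and M90 in the second, so this difference is partly tied to that split. With the library set as a term, 6 higher and 13 lower passed, and 4532 of all genes instead of 5102. P4hb (0.50), Herpud1 (0.47), Sec24d (0.39), Dnajb9 (0.26) and Edem1 (0.22) were higher in M90. Dnajb9 did not pass without single libraries: without H90 c the value was 0.16 (edgeR adjusted p = 0.13) and without M90 c 0.23 (edgeR adjusted p = 0.0576). Sdf2l1 (-0.61), Pdia4 (-0.50), Ern1 (-0.49), Pdia6 (-0.30) and Ssr1 (-0.30) were lower (edgeR adjusted p = 0.00011, 1.38e-08, 0.000287, 1.85e-05 and 1.44e-05). Hspa5 was lower in M90 too (-0.20, edgeR adjusted p = 0.000107).

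Set beside the promoter letters, the genes with an ERSE were not those that changed most. Leaving out Derl3, the 8 genes with an ERSE had log2 changes from -0.27 to 0.40 in M10 (median 0.01), while the 24 with a window and no ERSE ran from -0.72 to 1.62 (median -0.02). In H10 the ranges were -0.09 to 0.32 and -0.45 to 0.96, with medians of 0.17 and 0.13. Medians were alike. The ranges were narrower with an ERSE, but a range widens with the number of genes, so 8 and 24 cannot be compared this way. Herpud1, Sec24d, Dnajb9 and P4hb, the 4 with the greatest rises in M10, had no exact ERSE in the window. Of the 8, 3 passed as higher and 2 as lower in M10, and 4 and 0 in H10. Dnajb11, the other gene with an ERSE-II, had 0.02 in M10, against 1.62 for Herpud1.

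**Figure D5:**
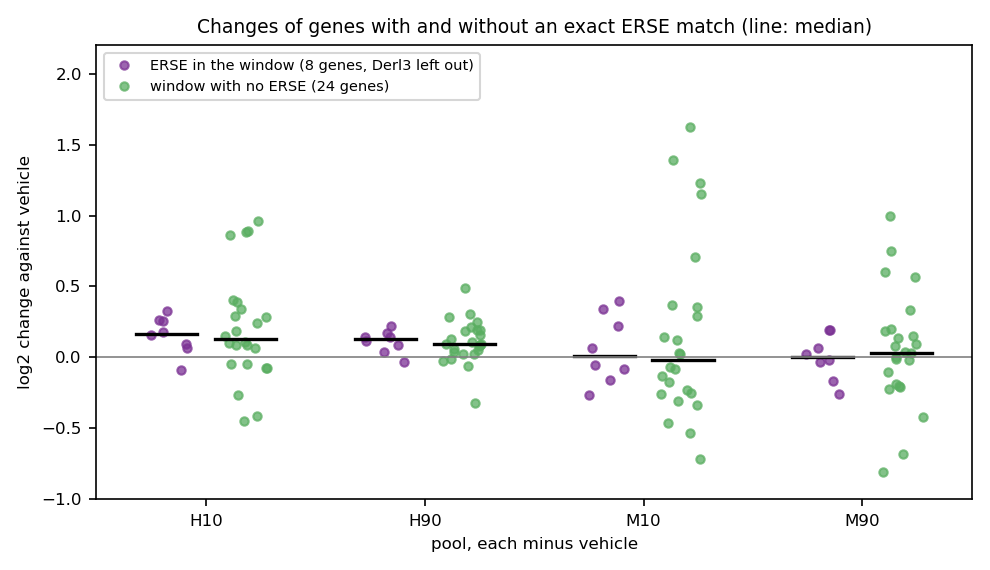
Log2 change against vehicle of the 8 genes with an exact ERSE match in the promoter window (purple) and of the 24 with a window and no match (green), with the median as a line. The purple points stay between -0.27 and 0.40 in all pools, and the points above 0.50 are green.

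Lists of other genes of the same pathways, 94 in all, gave the setting, to be read against the 48.5%, 21.6%, 64.5% and 54.7% of all genes that passed in H10, H90, M10 and M90. Of 8 genes of the PERK arm, the numbers higher and lower were 8 and 0 in H10, 6 and 0 in H90, 8 and 0 in M10, and 6 and 0 in M90, or 100%, 75%, 100% and 75%, with medians of 1.10, 0.48, 1.42 and 0.77 where that of all genes was 0.00, -0.01, -0.03 and -0.02. Chac1, which degrades glutathione, changed by 2.41 and 1.03 in H10 and H90, and 2.70 and 1.58 in M10 and M90, Ddit3 (CHOP) by 2.01 and 0.72 in H10 and H90, and 2.02 and 1.24 in M10 and M90 and Atf4 by 0.78 and 0.32 in H10 and H90, and 0.74 and 0.49 in M10 and M90. All of these passed the test, in every pool. PERK arm is the name of the list: the activity of PERK was not measured, and its part in these changes was not tested. Of 13 further COPII and cargo receptor genes, the numbers were 10 and 1 in H10, 6 and 1 in H90, 12 and 0 in M10, and 10 and 1 in M90, or 84.6%, 53.8%, 92.3% and 84.6%, with medians of 0.29, 0.09, 0.48 and 0.29. Sar1b, the coat GTPase that chylomicron transport depends on, changed by 0.79 and 0.54 in H10 and H90, and 1.11 and 0.92 in M10 and M90. Sec24a, a sister of Sec24d, had 0.73 and 0.35 in H10 and H90, and 1.02 and 0.65 in M10 and M90, and Mcfd2, a cargo receptor subunit, had 0.62 and 0.25 in H10 and H90, and 0.53 and 0.32 in M10 and M90.

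Of 20 further genes of ER-associated degradation, the numbers higher and lower were 11 and 0 in H10, 2 and 0 in H90, 10 and 0 in M10, and 7 and 2 in M90, or 55%, 10%, 50% and 45% of the list, below the share of all genes except in H10. Selk, a selenoprotein of the retrotranslocation complex, had 0.37 and 0.27 in H10 and H90, and 0.69 and 0.36 in M10 and M90, while Ubxn4 had 0.38 in M10. Of 21 further folding factors, the numbers were 8 and 2 in H10, 3 and 0 in H90, 8 and 2 in M10, and 9 and 3 in M90, or 47.6%, 14.3%, 47.6% and 57.1%, above the share of all genes in M90 alone. Mogs, the glucosidase that makes the first cut on the sugar chain, was lower in H10, M10 and M90 (-0.30, -0.65 and -0.51), whereas Ppib and Prkcsh were higher in all 4 pools, by 0.18 and 0.31 in M10. The changes of Ppib and, below, of Magt1 in M10 are smaller than the move of the all-gene median there from -0.03 to -0.29 under library size scaling. Of 24 further genes of translocation, signal peptidase and oligosaccharyltransferase, the numbers were 11 and 1 in H10, 6 and 1 in H90, 11 and 3 in M10, and 9 and 1 in M90, or 50%, 29.2%, 58.3% and 41.7%. Stt3b, a catalytic subunit of the oligosaccharyltransferase, was lower in all 4 pools (-0.31 and -0.14 in H10 and H90, and -0.51 and -0.43 in M10 and M90), while Magt1, a subunit of the same complexes, was higher (0.34 and 0.21 in H10 and H90, and 0.21 and 0.25 in M10 and M90) and so was Srp68 of the signal recognition particle (0.29 and 0.18 in H10 and H90, and 0.28 and 0.25 in M10 and M90).

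Of 8 other membrane-bound factors and their proteases, the numbers were 4 and 1 in H10, 2 and 0 in H90, 5 and 2 in M10, and 4 and 2 in M90, or 62.5%, 25%, 87.5% and 75%. Creb3l3, a factor of the ATF6 kind found in liver and small intestine, had the greatest change of the 3 named, with 1.97 and 1.49 in H10 and H90, and 3.01 and 2.71 in M10 and M90. Creb3l2 had 0.58 and -0.09 in H10 and H90, and 1.49 and 0.33 in M10 and M90 and Creb3l1 0.48 and 0.41 in H10 and H90, and 0.80 and 0.33 in M10 and M90, and the change of Creb3l2 in H90 did not pass.

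Markers of cell types moved with the pools. The summed level of 8 goblet cell markers was 1266 to 1290 CPM in vehicle, 3941 to 4140 in H10, 2038 to 2192 in H90, 7415 to 8381 in M10 and 3672 to 4059 in M90, so that M10 was highest and H90 lowest of the pools, as for Herpud1, Sec24d and Dnajb9. That order was not particular to goblet markers. By mean sum, M10 was highest and H90 lowest for enterocyte and Paneth markers and for the PERK arm genes too. Enteroendocrine and tuft markers were highest in M90. The counts of markers are read against the 48.5%, 21.6%, 64.5% and 54.7% of all genes that passed in H10, H90, M10 and M90. Goblet markers higher numbered 7, 7, 7 and 7 of 8 in the 4 pools, with 1 lower in H90 and in M90. Enterocyte markers higher were 6, 4, 7 and 6 of 7, with 1 lower in H90. Their sums were 11840 to 14230 CPM in vehicle, 17120 to 17730 in H10, 11920 to 12550 in H90, which overlapped vehicle, 26940 to 28090 in M10 and 16640 to 18080 in M90. Paneth markers higher were 6, 6, 5 and 6 of 6, enteroendocrine 5, 5, 6 and 6 of 6 and tuft 3, 2, 3 and 4 of 4. All 4 markers of dividing cells were lower in every pool, and crypt stem cell markers were lower in 5, 4, 5 and 4 of 5. The part of these cell types in the changes of the 42 genes was not tested. Markers of plasma and B cells, which are rich in ER, summed to at most 0.214 CPM, with Mzb1 at 0 counts in all libraries, and macrophage markers to 2.34 to 5.63 CPM with none of 3 past the test in any pool. Fibroblast markers summed to 3.03 to 5.42 CPM in the first library set and 8.21 to 14.98 in the second, and 0, 1, 1 and 1 of the 2 tested passed as higher in H10, H90, M10 and M90.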

How the data were processed

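RNA of 15 ileal organoid libraries was sequenced after poly-A selection with a TruSeq kit, per the labels' protocols. The deposited values are whole-number read counts per gene symbol, 1 file a library, not normalized. The submitters' processing notes name bcl2fastq 2.17, STAR 2.5.2b, featureCounts 1.5.0-p3 and the mm10 (GRCm38) build; the annotation, the strand setting and the handling of reads that map to several places are not given in the sources used here. Without a known strand setting, reads of overlapping antisense genes cannot be told apart.

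Groups came from the treatment labels. Symbols that passed edgeR's filterByExpr (13159 of 23420) were fitted with edgeR 4.0.16 under R 4.3.3: TMM scaling, one mean per group over all 15 libraries, a robust quasi-likelihood fit and F tests, two-sided, with Benjamini-Hochberg adjustment over all tested genes and a threshold of 0.05. Positive values of an A minus B contrast mean higher in A. Replicates of a group differed by at least 4.33 times sampling noise (chi-square per degree of freedom), so none was counted as a duplicate, and the common biological coefficient of variation was 0.0881. CPM per kb used GENCODE M21 exon lengths. Motifs were searched in RefSeq promoter windows (GRCm38.p6). The alternatives were scaling by RLE, by the upper quartile or by library size alone, 2 other filters on low counts, DESeq2 1.42.0, limma-voom (limma 3.58.1), a library set term, fits within a set, a block on the library letter, and each library left out. The fitting script was tested on simulated data with known changes.

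The 42 genes, the other pathway lists (94 of 94 symbols matched, Fam8a1 as C78339) and the cell type markers (54 of 55 matched) were chosen with earlier results of these data known. Library values are given for Hspa5, the 4 sensors and transcription factors, and up to 3 genes with the greatest change in each role group and each contrast, among those past the threshold with a mean of at least 2 CPM; other genes are given by range and count, and the ones named singly beyond this rule were chosen after their values were seen. From each other pathway list, the 3 genes with the smallest adjusted p for the mean of the pools were named, except 1 that is not reported here; markers are given by list. The 4 comparisons with vehicle share the vehicle libraries.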

Additional observations from a re-analysis of the deposited data

Results flagged for a closer look

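For 8 of the 42 genes the effect of the 90% share, M90 minus M10 less H90 minus H10, differed between the species models in the interaction test of edgeR (19% of the 42, where 14.8% of all tested genes passed). Sdf2l1 had the greatest difference, -0.80 on the log2 scale, and it was the one that passed with opposite signs in the models (0.35 in the human-like and -0.45 in the mouse-like pools), although the human-like call was lost without any one of H10 a, H10 b, H90 a and H90 b. Hspa5 had -0.27, Herpud1 -0.29 and P4hb 0.31, from differences of one sign and unequal size. The other genes had a positive difference: Sec61b 0.30, Spcs2 0.27 and Ssr2 0.25 of the translocon and signal peptidase, and Ddost 0.23 of the oligosaccharyltransferase. In the human-like pools Sec61b, Spcs2, Ssr2 and Ddost lay between -0.06 and 0.04. Leaving out single libraries ended the interaction calls of Sec61b, Spcs2 and Ssr2, and a term for the library set those of Ssr2 and Ddost.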

How the results depend on the processing

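Of 220 values (22 genes in 10 comparisons), those that kept their side of the threshold, and their sign where they passed in either fit, numbered 219 with a filter of 1 CPM in 3 libraries, 219 with no filter, 216 with RLE scaling, 213 with DESeq2, 215 with limma-voom and 215 with only the groups compared. The numbers were lower for upper-quartile scaling (197), library size scaling (174) and the library set term (192).

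Among values that passed in either fit, library size scaling turned Atf6 (-0.082) and Ssr3 (-0.14) in M10, Hspa5 (-0.13) and Ssr3 (-0.11) in M90, and Ssr3 in the mean of the pools (-0.012). Upper-quartile scaling turned Ssr3 in M10 (-0.006), and the set term turned Edem2 in M90 (-0.044). Library size scaling called 30 of the 42 genes in M90 minus H90, and 5478 of the 13159 tested. The set term called 3 in H90, 19 in M10 and 14 in M90 against vehicle and 11 in M10 minus H10, and of all genes 1069 in H90, 5809 in M10 and 3958 in M90 against vehicle and 2025 in M10 minus H10, where the model without it called 2840, 8482, 7199 and 4779. Within the first set, H90 minus vehicle rested on H90 a alone and called 5 of the 42 and 1687 of all genes. The cause was not tested.

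With each library left out in turn, the calls among the 42 ranged from 21 to 24 in H10, 9 to 14 in H90, 26 to 30 in M10, 18 to 21 in M90, 22 to 27 for the mean, 13 to 17 in H90 minus H10, 18 to 20 in M90 minus M10, 22 to 25 in M10 minus H10, 17 to 20 in M90 minus H90 and 6 to 9 for the interaction. Over all genes the ranges were 5723 to 5884, 2064 to 2956, 7966 to 8278, 6432 to 6607, 6727 to 7760, 4080 to 4524, 4545 to 5217, 3957 to 4619, 4306 to 5012 and 1493 to 2072 in the same order. None of the 220 values that passed with all libraries or with 1 left out changed sign.

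Libraries that share a letter varied together weakly, if at all. The residual correlations over 30 same-letter pairs ran from -0.0237 to 0.0829 (median 0.00499). Over 60 other pairs they ran from -0.0579 to 0.05 (median -0.00305). For 11 of 15 libraries the highest mean correlation was with their own letter. With a block on the letter, 215 of the 220 values kept their side of the threshold, 5 passed in addition and none was lost. The block called more genes than the main fit in every comparison. It called 6418 in H10 against 6380, 8483 in M10 against 8482 and 2931 in H90 against 2840. In H90 minus H10 it called 4889 against 4815.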
